A study of Drosophila melanogaster with 14 samples.

Results

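Eip74EF and broad (br) are early genes of the ecdysone response, and the peaks of 4 insulator proteins around them were taken from the 12 deposited peak lists by position alone. A peak belonged to the set when it overlapped 3L:17530001-17650000, the window around Eip74EF, or X:1450001-1590000, the window around br, both in the coordinates of Release 5 of the Drosophila melanogaster genome. The windows held 210 of the 81028 peaks in all lists, 126 around Eip74EF and 84 around br. The material was Kc167, an embryonic cell line grown in serum-free medium, so the lists describe a cultured line and not a tissue of the animal. Cells were untreated (0 h) or had been kept for 3 h or 48 h with 5e-07 M 20-hydroxyecdysone (20HE), and the labels name no transgene or mutation in any group. Chromatin immunoprecipitation and sequencing (ChIP-seq) was done for CP190, Su(Hw), dCTCF and BEAF-32, the last with an antibody named for its form BEAF32B. Each protein and time had 1 library, so no difference between times has a replicate check and no test was possible; 2 input libraries of untreated cells were not analysed here.

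20-hydroxyecdysone is the steroid that starts moulting and metamorphosis in flies. It binds a receptor made of EcR and USP, which switches on a small set of early genes, and the products of those genes are transcription factors that act on later targets. In larval salivary glands these loci are visible as early puffs. Eip74EF encodes transcription factors with an ETS DNA-binding domain, and br encodes a family of BTB zinc-finger factors made by alternative splicing. Insulator proteins mark sites at which chromatin domains meet and contacts between enhancers and promoters can be limited. Su(Hw) is the zinc-finger protein known from the gypsy insulator, dCTCF is the fly form of the vertebrate factor CTCF, and BEAF-32 binds mostly close to gene starts. CP190 is a BTB zinc-finger cofactor that is brought to DNA by partners such as these.

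In the RefSeq gene table, which uses the later Release 6, Eip74EF is listed with 5 transcripts and its nearest protein-coding neighbours that do not overlap it are CycT and Vps60. The same table lists br with 16 transcripts and the neighbours inc and dor. Since that table and the peak lists use different releases, the table served for names and order alone, and the place of a peak relative to an exon, an intron or a promoter was not analysed here.

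Eip74EF held many peaks when the 4 proteins were summed, whereas many sites of br were held by Su(Hw) without a partner. Around Eip74EF, the CP190 lists of 0, 3 and 48 h gave 10, 11 and 11 peaks and the Su(Hw) lists 14, 18 and 16. The dCTCF lists gave 6, 10 and 8 peaks at the same locus, and those of BEAF-32 gave 6, 8 and 8. Every protein thus had more peaks listed at either treated time than at 0 h at Eip74EF in the whole lists. That order did not hold with the top 50% of each list by score, where CP190 had 7, 7 and 5 peaks at 0, 3 and 48 h and BEAF-32 had 3 at each time, nor with all lists cut to equal length, where BEAF-32 had 6, 4 and 6. Around br, CP190 had 4, 5 and 4 peaks at 0, 3 and 48 h and Su(Hw) had 12, 13 and 15. For dCTCF the counts at br were 3, 6 and 3, and for BEAF-32 they were 3, 7 and 9. The number for dCTCF at br was thus higher at 3 h alone, while that for BEAF-32 was higher at both treated times in the whole lists and 3 at each time in their top 50%.

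To give these counts a background, arm 3L was divided into tiles of 120000 bp in step with the Eip74EF window and arm X into tiles of 140000 bp in step with the br window. The 126 peaks at Eip74EF compare with a median of 69 over the other 203 tiles of arm 3L, of which 10 held more. By protein the rank varied: 12 tiles held more CP190 and 13 more Su(Hw) peaks at 0 h, but 32 held more dCTCF and 29 more BEAF-32 at 0 h, and 44 and 45 held more BEAF-32 at 3 and 48 h. The 84 peaks at br lay near the median of 87 over the other 158 tiles of arm X, of which 82 held more. The br window was low in CP190, with 4 peaks at 0 h against a tile median of 7, and 27 tiles held fewer. These positions among tiles describe the arms of these libraries and are not a test, and 52 quantities were set against the tiles for each window.

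**Figure D1:**
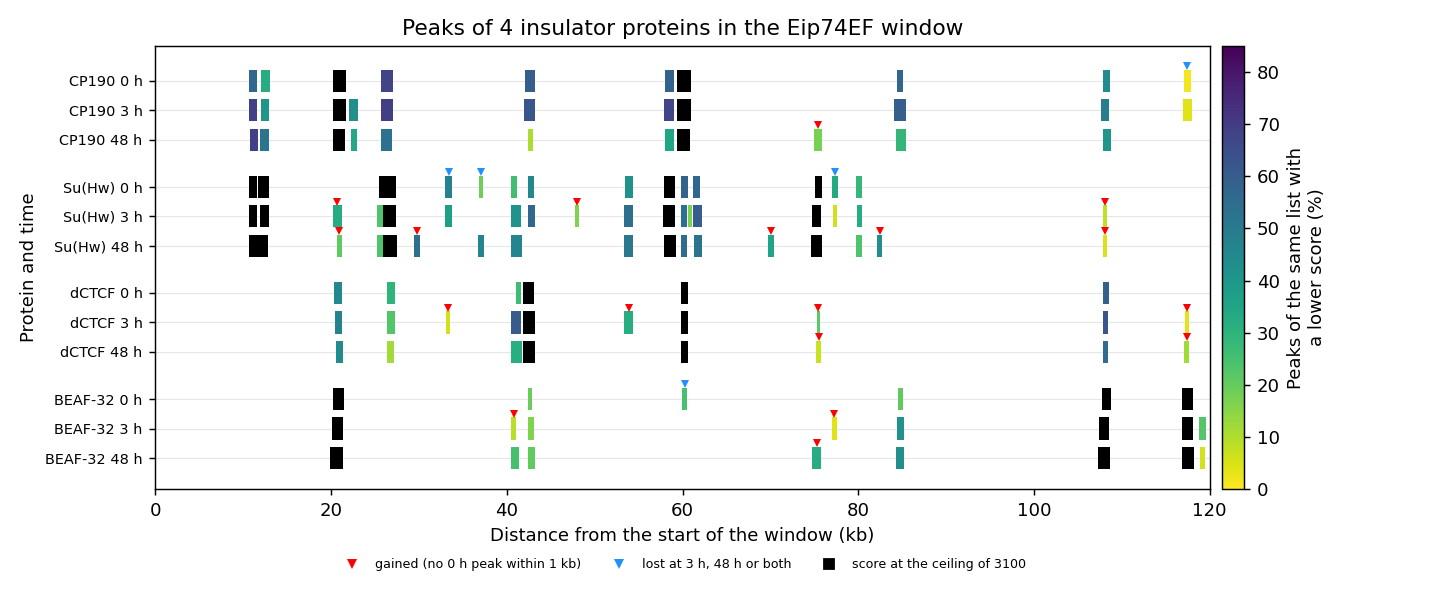
Peaks of the 12 lists in the Eip74EF window by distance from its start (horizontal axis, kb), 1 row for each protein and time. Colour gives the percent of the peak's own list with a lower score, black marks the score ceiling of 3100, red triangles mark gained peaks and blue triangles mark 0 h peaks lost at 3 h, 48 h or both. The longest stretch between regions with no peak, 21920 bp, lies near the end of the window.

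**Figure D2:**
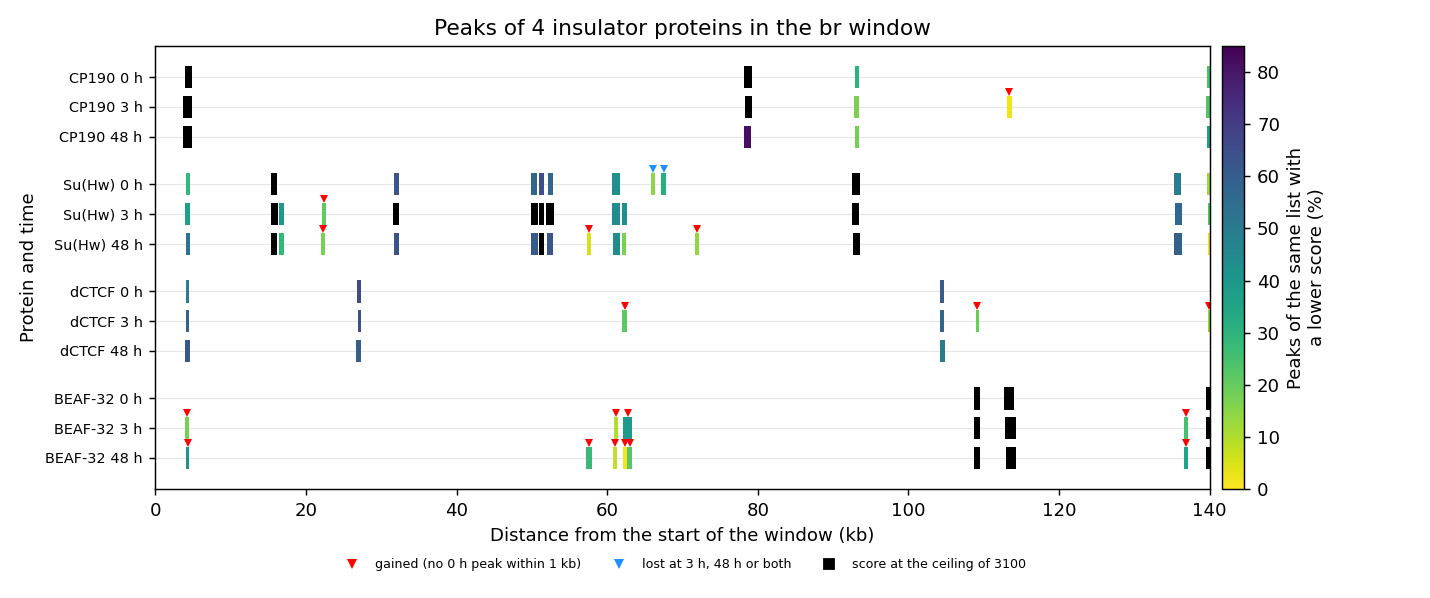
Peaks of the 12 lists in the br window by distance from its start (horizontal axis, kb), with the same rows, colours and marks as for Eip74EF. Su(Hw) has more peaks than any other protein in each time's rows (12, 13 and 15), and gained BEAF-32 peaks stand at 3 and 48 h where its 0 h row is empty.

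Most peaks listed at 0 h were listed again after hormone. A 0 h peak was called persistent when it shared at least 1 bp with a peak of the same protein in a treated list. Gained means a treated peak with no 0 h peak of its protein closer than 1 kb, lost means the converse for a 0 h peak, and peaks between those limits were neither. Both treated lists of a protein are set against the same 0 h list, so the calls at 3 and 48 h are not independent. Around Eip74EF, 34 of 36 peaks at 0 h persisted at 3 h (94.4%, 95% Wilson interval 81.9 to 98.5) and 31 of 36 at 48 h (86.1%, 71.3 to 93.9). Over arm 3L the shares were 90.9% and 84.8%. Around br, 20 of 22 peaks persisted at each time (90.9%, 72.2 to 97.5), beside 92.3% at 3 h and 88.1% at 48 h over arm X. Persistence at the early genes was therefore within counting error of that of the arms, and the intervals cover counting error alone.

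CP190 kept nearly all of its sites in the windows, as it kept most on the main arms. There, 96.4% of its 0 h peaks persisted at 3 h and 89.1% at 48 h, within the intervals of the windows. All 14 of its 0 h peaks in the windows persisted at 3 h (100%, 78.5 to 100) and 13 of 14 at 48 h (92.9%, 68.5 to 98.7). The exception was at 3L:17646815-17648159, where CP190 had low scores of 104.43 at 0 h and 118.2 at 3 h and no peak at 48 h, 1 lost peak of 14, beside 9.67% of the CP190 peaks of the main arms lost at 48 h and 3.16% at 3 h. CP190 was gained at 3 h in 1 of its 16 window peaks (6.25%, 1.11 to 28.3), at X:1562632-1564290 with a score of 109.04, beside 11.6% on the main arms. At 48 h it was gained in 1 of 15 (6.67%, 1.19 to 29.8), at 3L:17604600-17605887, beside 9.23%. The score is the authors' own value for a peak, of unknown definition, and its lowest value was 100. Many peaks stood at exactly 3100 and 488 of all peaks above it, up to 3233.06, and values from 3100 upward were treated as tied and are called the ceiling here. Since lists differ in length and the score has no stated scale, scores and ranks at different times cannot show whether binding changed.

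For dCTCF, all 9 window peaks at 0 h persisted at both treated times (100%, 70.1 to 100). On the main arms 84.7% persisted at 3 h and 77.6% at 48 h, which lie within that interval. There, 12.9% of its 0 h peaks were lost at 3 h and 20.2% at 48 h. Of the 16 dCTCF peaks at 3 h, 7 were gained (43.8%, 23.1 to 66.8), 4 around Eip74EF and 3 around br, beside 14.5% on the main arms. At 48 h, 2 of 11 were gained (18.2%, 5.14 to 47.7), both around Eip74EF, beside 7.5%, which lies within the interval. Among the other tiles of arm 3L none had more than the 4 gained dCTCF peaks of Eip74EF at 3 h, and 3 had as many; at br, 2 of the 158 tiles of arm X had more than 3 and 12 had as many. All 7 were weak, with scores from 107.85 to 212.41. Below a score of 250, a limit set after the values were seen, 7 of the 8 dCTCF peaks of the windows at 3 h were gained, beside 36.7% of such peaks on the main arms.

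The gained dCTCF peaks stood mainly on sites that another protein already held. When the peaks of all lists were merged into regions wherever they shared at least 1 bp, 6 of the 7 lay in a region that another protein held at 0 h, and the share over the main arms was similar at 86.3%. At Eip74EF these were 3L:17562975-17563810, with Su(Hw) and a dCTCF score of 113.32, 3L:17583357-17584389, with Su(Hw) and 212.41, 3L:17604600-17605887, with Su(Hw) and 163.76, and 3L:17646815-17648159, with CP190, BEAF-32 and 107.85. The last pair was listed again at 48 h, with scores of 124.19 and 145.11. At br, dCTCF was gained at 3 h at X:1558672-1559513, with a score of 154.63 beside a ceiling peak of BEAF-32, and at X:1589485-1590453, with 135.41 beside CP190, Su(Hw) and BEAF-32. At X:1511990-1513342, with 162.83, no protein was listed at 0 h, and none of the 3 dCTCF gains at br was listed at 48 h.

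By number, Su(Hw) had more lost peaks in the windows than the other 3 proteins. It also had the most peaks there at 0 h, 26 of 58. Of these, 23 persisted at 3 h (88.5%, 71 to 96) and 21 at 48 h (80.8%, 62.1 to 91.5). The shares on the main arms, 92.5% and 88.6%, lie within those intervals. In the windows 3 were lost at 3 h (11.5%) and 4 at 48 h (15.4%), beside 5.72% and 8.79% on the main arms. BEAF-32 lost 1 of 9 at each time (11.1%). At Eip74EF, Su(Hw) was listed at 3L:17562975-17563810 with scores of 727.47 at 0 h and 390.28 at 3 h, and not at 48 h. At 3L:17606990-17607682 it had 323.38 at 0 h and 122.03 at 3 h and was absent at 48 h. At 3L:17566744-17567415 it had 187.29 at 0 h, no peak at 3 h and 655.78 at 48 h, so that a peak called lost at 3 h was listed again later. At br, Su(Hw) stood alone at 0 h at X:1515808-1516331, with 160.97, and at X:1517120-1517859, with 305.51, and neither region held any peak at 3 or 48 h.

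Su(Hw) was also gained, in 4 of 31 window peaks at 3 h (12.9%, 5.13 to 28.9), beside 9.03% on the main arms, within the interval. At 48 h it was gained in 8 of 31 (25.8%, 13.7 to 43.2), beside 11.7%. Eip74EF had 5 of the 8 at 48 h, and over arm 3L 1 other tile had more and 1 had as many. The highest score of any gained peak in the windows, 1170.58, was that of a Su(Hw) peak at 3L:17559457-17560146, a region listed at 48 h alone and for Su(Hw) alone. Su(Hw) was likewise alone and at 48 h only at 3L:17599698-17600412 with 362.66, at 3L:17612151-17612751 with 547.26 and at X:1521633-1522131 with 158.34, and it was alone and at 3 h only at 3L:17577791-17578234 with 172.43. At X:1472037-1472713 it was absent at 0 h and listed at both treated times, with 201.15 and 177.35. At X:1466425-1467070 it was also listed at 3 and 48 h alone, with 440.82 and 276.25, but a Su(Hw) peak of 0 h within 1 kb kept these from being called gained.

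BEAF-32 kept 8 of its 9 window peaks at each treated time. The lost peak lay at 3L:17589316-17591099 with a score of 246.32 at 0 h, beside 8.67% of BEAF-32 peaks lost at 3 h and 8.96% at 48 h on the main arms. Of its window peaks, 6 of 15 were gained at 3 h (40%, 19.8 to 64.3) and 7 of 17 at 48 h (41.2%, 21.6 to 64). On the main arms the shares were 30.6% and 31.1%, within those intervals and the highest backgrounds of the 4 proteins. The BEAF-32 list at 0 h also differed in make-up, with 4187 peaks on the main arms against 5882 and 5896 at 3 and 48 h and 1818 on unplaced sequence against 782 and 486. The part of that difference in the gains was not tested. Most BEAF-32 gains were at br, with 4 peaks at 3 h and 6 at 48 h, and 5 of the 158 other tiles of arm X had more than 6 at 48 h. Counting both times, 8 of the 18 gained calls of br were of proteins other than BEAF-32.

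Several of the BEAF-32 gains at br shared a region with Su(Hw) or stood alone. At 3 h 2 of 4, and at 48 h 2 of 6, lay in a region that another protein held at 0 h. The shares on the main arms were 61.7% and 60.4%. BEAF-32 was gained at X:1510625-1511726 with 163.3 at 3 h and 139.63 at 48 h, where Su(Hw) had 512.75, 565.55 and 584.12 at 0, 3 and 48 h. At X:1507123-1507997, a region empty at 0 and 3 h, BEAF-32 had 398.52 and Su(Hw) 120.05 at 48 h. At X:1586548-1587136 BEAF-32 was the only protein listed, with 367.81 at 3 h and 678.28 at 48 h. The widest mix of new peaks was at X:1511990-1513342, empty at 0 h, where Su(Hw) had 514.1, dCTCF 162.83 and BEAF-32 820.69 at 3 h. At 48 h that region held Su(Hw) with 175.8 and 2 BEAF-32 peaks with 106.78 and 292.99. Its Su(Hw) peaks counted as neither shared nor gained, because a Su(Hw) peak of 0 h lay within 1 kb in the next region.

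At Eip74EF the BEAF-32 gains were at 3L:17570489-17571711, with a score of 156.66 at 3 h, at 3L:17606990-17607682, with 123.04 at 3 h, and at 3L:17604600-17605887, with 537.61 at 48 h. In the first of these Su(Hw) and dCTCF were listed at all 3 times, and BEAF-32 had 341.62 at 48 h, a peak within 1 kb of a 0 h BEAF-32 peak in the next region and so not called gained. In the second, Su(Hw) was the only other protein. At 3L:17648830-17649616 BEAF-32 was the only protein and had peaks at 3 h (318.69) and 48 h (127.14), again within 1 kb of a 0 h peak of BEAF-32. CP190 was likewise alone at 3L:17552013-17553070, with 483.99 at 3 h and 295.68 at 48 h and a 0 h CP190 peak within 1 kb.

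The gained peaks were weak within their own lists, and low scores of gained peaks were not particular to these windows. On the main arms at 3 h, 586 of 727 gained CP190 peaks, 685 of 767 of Su(Hw) and 561 of 592 of dCTCF scored below 250. For BEAF-32 it was 723 of 1800. At Eip74EF the 18 gained peaks had a median of 17% of their list with a lower score (range 3.72 to 54.4), and the 66 treated peaks shared with 0 h had a median of 56.2%. At br the 18 gained peaks had a median of 18.4% (range 1.65 to 41.5) and the 40 shared peaks 59.2%. No gained or lost peak of either window reached the score ceiling. The 0 h peaks at the ceiling, 12 at Eip74EF and 7 at br, persisted at both treated times. Counting gains of all 4 proteins, 9 of 47 peaks at 3 h and 9 of 43 at 48 h were gained at Eip74EF (19.1%, 10.4 to 32.5, and 20.9%, 11.4 to 35.2), beside 15.8% at each time on arm 3L, which lies within both intervals. At br they were 9 of 31 at each time (29%, 16.1 to 46.6), beside 15.3% and 14% on arm X, which lie below that interval.

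**Figure D3:**
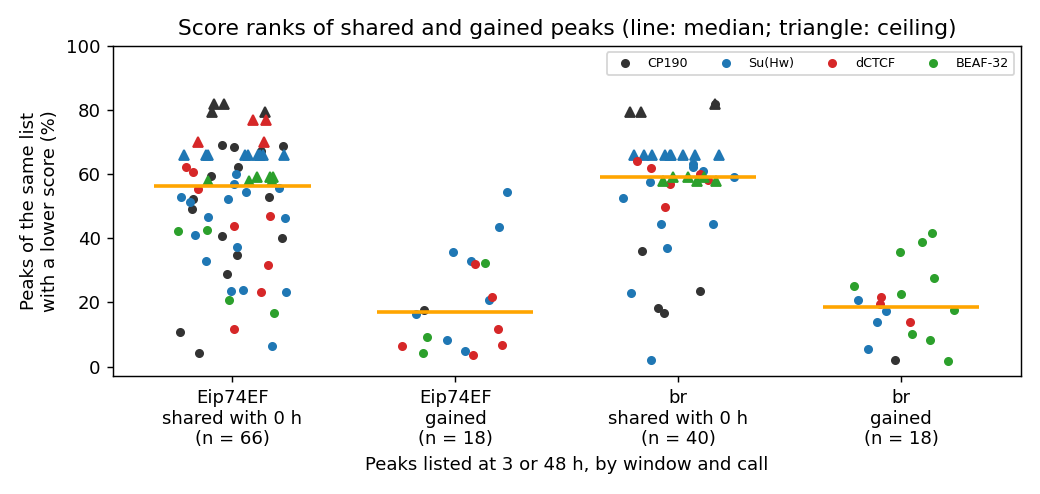
Percent of the peak's own list with a lower score (vertical axis) for each peak listed at 3 or 48 h in the 2 windows that was shared with 0 h or gained (horizontal axis). Points are peaks coloured by protein, triangles are peaks at the score ceiling and lines are medians. Gained peaks lie lower, with medians of 17% at Eip74EF and 18.4% at br against 56.2% and 59.2% for shared peaks.

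Against the tiles, gained peaks of the 4 proteins together were many in both windows. The 9 gained peaks of Eip74EF at each time compare with a tile median of 3, and 11 of 203 tiles had more at 3 h and 5 at 48 h. That window also held 126 peaks against a tile median of 69. As shares of its treated peaks its gains, 19.1% and 20.9%, were near the 15.8% of arm 3L. The 9 of br at each time compare with a median of 4, and 12 of 158 tiles had more at 3 h and 5 at 48 h. Losses at 3 h were 2 in each window, beside a median of 1 on either arm, and at 48 h they were 4 at Eip74EF and 2 at br, beside a median of 2 on either arm. More losses were found in 51 and 41 of 203 tiles than at Eip74EF at 3 and 48 h, and in 38 and 78 of 158 than at br. As shares of 0 h peaks, losses at Eip74EF were 5.56% and 11.1% at 3 and 48 h, beside 7.59% and 13.1% on arm 3L. At br they were 9.09% at each time, beside 6.27% and 10.1% on arm X. Single proteins differed from these sums: 94 tiles had more CP190 gains than Eip74EF at 3 h (none there), 107 had more BEAF-32 gains at 48 h (1 there), and 3 had more Su(Hw) losses than br at 3 h (2 there). Eip74EF also held more listed peaks of each protein at each time than most tiles. Its number of persistent peaks was high as well, at 34 for 3 h against a median of 20, but so was its number of 0 h peaks, 36 against 22. At br the number of persistent peaks was not high, at 20 against a median of 25, with 22 peaks at 0 h against 27.

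**Figure D4:**
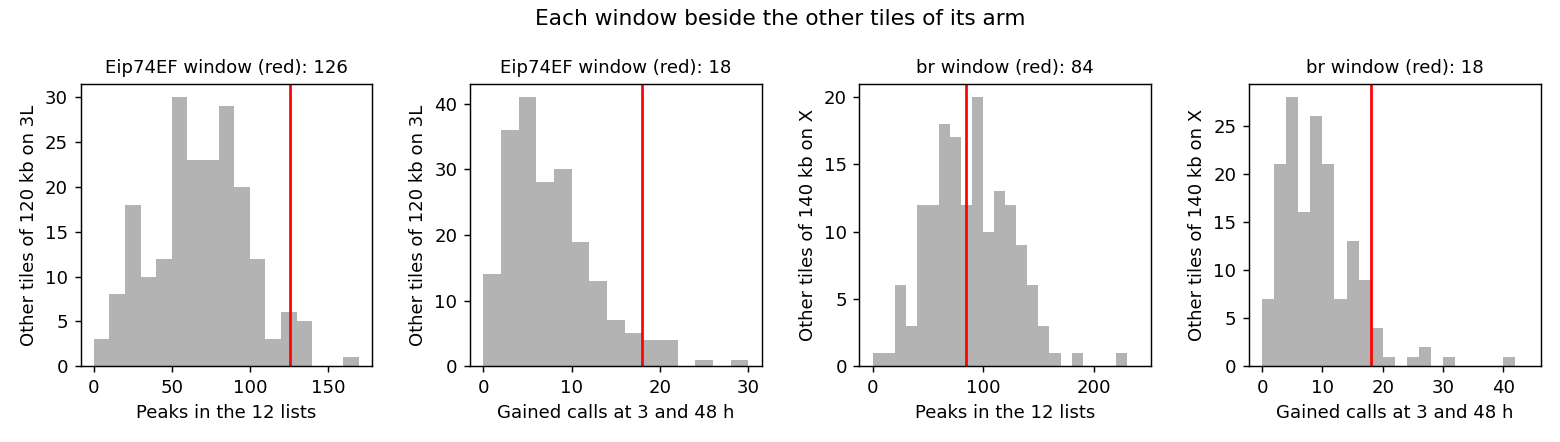
Histograms of the number of peaks in the 12 lists and of gained calls at 3 and 48 h together (horizontal axes) over the other tiles of the same length on arms 3L and X (vertical axes, number of tiles), with a red line at the value of the window. Eip74EF lies above most tiles for peaks (126, median 69) and gained calls (18, median 6), whereas br lies near the middle for peaks (84, median 87) and above most tiles for gained calls (18, median 8).

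The 126 peaks of Eip74EF merged into 23 regions and the 84 of br also into 23. The proteins listed differed between times in 17 of the 23 regions at Eip74EF (73.9%, 53.5 to 87.5), beside 54.9% of all regions of arm 3L. At br they differed in 13 of 23 (56.5%, 36.8 to 74.4), beside 51.1% on arm X. Both arm shares lie within these intervals. The same proteins were listed at all 3 times in the other 6 regions at Eip74EF (26.1%, 12.5 to 46.5) and 10 at br (43.5%, 25.6 to 63.2). The number of differing regions at Eip74EF was exceeded in 4 of 203 tiles, whose median was 7, while its number of unchanging regions equalled the median of 6. The window also held many regions of any kind, 23 against a tile median of 14, and 6 tiles had more. In 13 of the 17 differing regions at Eip74EF a single protein accounted for the difference. Each window had 6 regions with no peak at 0 h. The other 17 of 23 had a 0 h peak, beside 2255 of 2736 on arm 3L and 2243 of 2685 on arm X. For some of the 6, a 0 h peak of the same protein lay within 1 kb in the next region.

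The sites with all 4 proteins show how the lists differed at single places. At Eip74EF, 5 of 23 regions held all 4 at one time or more, beside 14.1% on arm 3L, and none held all 4 at every time, beside 5.04%. At 3L:17549878-17551646, CP190 and BEAF-32 were at the ceiling at all 3 times and dCTCF had 508.97, 360.55 and 601.23 at 0, 3 and 48 h. Su(Hw) was absent there at 0 h and had 318.49 and 200.62 at 3 and 48 h, which made the set complete. The same order held at 3L:17637333-17638773, where CP190 had 397.39, 652.66 and 375.14, dCTCF had 1116.65, 851.94 and 1210.53, and BEAF-32 was at the ceiling. Su(Hw) was gained there with 130.26 at 3 h and 117.73 at 48 h. In both places, a low-scoring Su(Hw) peak was thus listed after hormone beside 3 proteins already there.

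Of the others, 3L:17604600-17605887 had Su(Hw) alone at 0 h, at the ceiling at every time, with dCTCF listed beside it at 3 h and CP190 (176.6), dCTCF (124.19) and BEAF-32 (537.61) at 48 h. At Eip74EF it was the only region in which 3 proteins differed between times. At 3L:17571802-17573230, dCTCF was at the ceiling throughout and BEAF-32 had 200.05, 226.28 and 266.34. Su(Hw) had 616.7 at 0 h and 1335.15 at 3 h and no peak in that region at 48 h, though a Su(Hw) peak lay within 1 kb, and CP190 had 735.44, 1176.48 and 142.32. At 3L:17589316-17591099, CP190 and dCTCF were at the ceiling at all times, the strongest Su(Hw) peak had 1772.5, 954.41 and 1295.16, and BEAF-32 was listed at 0 h alone. Thus all 4 proteins were listed at 0 h in 2 of the 5 regions, and in the other 3 only after hormone.

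At br, 2 of 23 regions held all 4 proteins at one time or more, beside 15% on arm X. In X:1453690-1454870, CP190 was at the ceiling throughout, the Su(Hw) scores were 264.74, 380.01 and 999.35, and those of dCTCF were 617.49, 627.37 and 1823.83. BEAF-32 was gained there with 237.45 at 3 h and 1023.34 at 48 h, the latter the highest score of a gained peak at br. The other, X:1589485-1590453, crossed the end of the window, with BEAF-32 at the ceiling throughout, CP190 at 206.73, 237.74 and 316.51 and Su(Hw) at 152.57, 215.85 and 107.57. It held all 4 at 3 h alone, through the dCTCF peak described above.

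The br window differed from Eip74EF in how often proteins shared a region. At 0 h, 14 of the 17 occupied regions of br held a single protein (82.4%, 59 to 93.8), beside 53% on arm X, and 7 of 17 did so at Eip74EF (41.2%, 21.6 to 64), beside 50.7% on arm 3L. Over all times, 11 of 23 regions of br held Su(Hw) and no other protein, against a tile median of 4, and 5 of 158 tiles had more. Eip74EF had 7 such regions against a median of 3, and 22 of 203 tiles had more. As a share of its regions this was 30.4% (15.6 to 50.9), near the 27.7% of arm 3L. At br the share was 47.8% (29.2 to 67), beside 27% on arm X. A cluster of 3 adjacent Su(Hw) regions lay at X:1499904-1500811, X:1500926-1501613 and X:1501824-1502904. Their Su(Hw) scores at 0 h were 1602.45, 2973.4 and 1539.65. At 3 h all 3 had scores of 3100 or more, and at 48 h the scores were 2091.51, 3100 and 2320.99.

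CP190 was listed with its partners in few regions of br. At 0 h, CP190 was listed in 5 of the 13 Su(Hw) regions of Eip74EF, in 5 of its 6 dCTCF regions and in all 6 BEAF-32 regions. At br it was listed in 3 of 12 Su(Hw) regions, in 1 of 3 dCTCF regions and in 1 of 3 BEAF-32 regions. The shares for Su(Hw), dCTCF and BEAF-32 regions were 48.1%, 71.7% and 69.8% on arm 3L and 46.3%, 69% and 66.9% on arm X. The Su(Hw) share of Eip74EF, 38.5% (17.7 to 64.5), was thus below that of its arm, and all 3 shares of br were below those of arm X. The intervals at br were 8.89 to 53.2 for Su(Hw) and 6.15 to 79.2 for dCTCF and for BEAF-32. In each of these cases the arm share lies within the interval. With so few regions, these shares describe the loci and were not tested. One CP190 site of br stood without any partner at all 3 times, X:1528195-1529209, with scores of 3100, 3100 and 3079.82. A pair of dCTCF sites at br also had no other protein, X:1476688-1477348 with 1822.22, 992.18 and 1605.0 at 0, 3 and 48 h and X:1554173-1554839 with 1158.12, 580.54 and 854.23.

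Several sites, strong and weak, had the same proteins at every time. At Eip74EF, 3L:17540604-17543017 held Su(Hw) at the ceiling and CP190, whose higher peak had 644.03, 1614.3 and 1365.54, and 3L:17587772-17589260 held Su(Hw) at the ceiling and CP190 with 688.9, 1514.59 and 302.02. At 3L:17555243-17557494, Su(Hw) was at the ceiling beside CP190 (1102.61, 1664.24 and 623.44) and dCTCF (259.74, 169.24 and 145.72). CP190 and BEAF-32 shared 3L:17614117-17615412, with BEAF-32 scores of 209.06, 1006.5 and 1100.75. At br, Su(Hw) was at the ceiling at X:1465292-1466259 without a partner and at X:1542455-1543524 beside CP190 with 251.03, 187.56 and 180.86. Su(Hw) was alone at all times at X:1481550-1482339 (2541.04, 3100 and 2437.0) and X:1585303-1586288 (787.55, 1399.09 and 1755.0), as it was at 3L:17591191-17592247 (1492.93, 1809.6 and 969.29) and 3L:17609759-17610425 (268.28, 318.35 and 223.49). BEAF-32 was at the ceiling at all times at X:1558672-1559513 and X:1562632-1564290, which differed between times by the single dCTCF or CP190 peak named above. In all, 35 of the 126 peaks of Eip74EF were at the ceiling (27.8%, beside 31.3% on arm 3L) and 25 of the 84 of br (29.8%, beside 33.1% on arm X).

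The longest stretch between regions, with no peak of any protein at any time, was of like size in both windows. At Eip74EF it was 3L:17615413-17637332, 21920 bp, and the median distance between regions in the window was 2500 bp. On arm 3L, 7.75% of such distances were as long and the median was 4339 bp. At br it was X:1564291-1585302, 21012 bp, with a window median of 3802.5 bp, and 7.38% of the distances on arm X were as long.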

How the data were processed

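Each of the 12 ChIP libraries had 1 peak list, with a sequence name, start, end, peak name and score per peak. The score is the authors' own value in the deposited lists, and values from 3100 upward counted as ties. Per the submitters' processing notes the aligner was Bowtie 0.12.5, and the peak names carry the prefix of MACS, per the files themselves. The sequence names are those of Release 5. Caller settings, control, build and the meaning of the score: not given in the sources used here. Chromatin was sheared and size selected before sequencing, per the labels' protocols, which limits how finely a peak is placed. The lists carry no read counts, so the depth is unknown.

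Peaks were assigned to the windows, compared and merged in Python 3.11.15 with numpy 2.4.6 and pandas 2.3.3, and the overlap code was tested on simulated peaks. Every tile of the arm was used in place of random windows. With 1 library per group there were no tests. The regions described are those whose proteins differ between times, those with all 4 proteins and those with the highest scores; other regions were described after their values were seen. The windows, members and lists were chosen with earlier results of these data known. The score limit of 250, the shares of gained peaks on held regions and the run without BEAF-32 were added after the values were seen. Alternatives were other overlap rules, shorter lists, other window ends and shifted tiles. The peaks were not compared with gene annotation, since no Release 5 annotation was used here.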

Additional observations from a re-analysis of the deposited data

Results flagged for a closer look

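For Su(Hw) at 3 h, gained minus lost peaks came to 2 in the Eip74EF window (3 gained and 1 lost) and to -1 in the br window (1 gained and 2 lost). The signs were opposite under this definition of gained and lost, but not under 4 alternatives, in which br came to 1 and Eip74EF kept a positive value. The br window had 3 gained and 2 lost peaks with an overlap of 50% of the shorter peak, with centres within 250 bp and with gained and lost meaning no overlapping peak, and 1 gained and 0 lost in the top 50% of each list. The difference was not tested, since each time had 1 library.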

How the results depend on the processing

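Gained minus lost Su(Hw) peaks at br at 3 h turned from -1 to 1 with an overlap of 50%, centres within 250 bp, no overlapping peak and the top 50% of each list, and those of BEAF-32 at Eip74EF at 3 h turned from 1 to -1 with the lists of the protein at equal length. The treated minus 0 h number of peaks turned from 1 to -2 for CP190 at Eip74EF at 48 h in the top 50%, and with all lists at equal length from 2 to -2 for BEAF-32 at Eip74EF and from 1 to -1 for CP190 at br, both at 3 h. The cause was not tested. Of the values of the main results under alternatives, 60 stayed close to the value reported and 14 moved. Close was a wide limit: gained calls at Eip74EF went from 18 to 24 with no overlapping peak and were counted as close. Of the other values, by protein or by time, 493 stayed close, 205 moved and 8 changed sign. With peaks matched by centres within 250 bp, gained calls at Eip74EF went from 18 to 33 and lost calls from 6 to 15. With the top 50% of each list by score, Eip74EF had 4 gained and 2 lost calls, 62 peaks and 14 regions, and br had 5 gained calls (main 18), 1 lost call (main 4), 43 peaks and 14 regions. Windows widened by 20 kb at each end gave 10 lost calls at Eip74EF, and narrowed windows left 53 peaks at br. With tiles shifted out of step with the window, 98% of tiles had fewer peaks than Eip74EF, against 95.1%. Leaving out the BEAF-32 lists, chosen after the data were seen, gave 8 gained calls at br. Since calls were made within each protein, that number only takes away the BEAF-32 calls and is no check on the rest. The read depth behind each list is unknown, so the lowest enrichment that a list could hold cannot be given. No paired analysis was possible because each protein and time had 1 library and no test was run.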
